A study of Rattus norvegicus with 8 samples.

Results

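The sodium pump (Na,K-ATPase) beta subunits and the plasma membrane calcium pumps were examined in cells labelled as perineuronal oligodendrocytes, which sit against the cell bodies of neurons. The 7 genes were Atp1b1, Atp1b2, Atp1b3, Atp2b1, Atp2b2, Atp2b3 and Atp2b4. A probe set, the group of oligonucleotides that reads one transcript, was taken where the platform annotation gave exactly 1 of these symbols. This found 15 of the 31142 probe sets that are not controls, and each of the 7 genes, of 13810 named in all, had at least 1. Chip A gave 11 of its 15866 and chip B gave 4 of its 15276. The genes were chosen on their ratios in these arrays, known from earlier results, so their own values are a description and carry no test.

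The cells were sorted by flow cytometry for the surface markers A2B5 (a ganglioside epitope found on glial precursors) and OTMP, from the brain of rats at postnatal day 7. Each of 4 biological replicates gave total RNA for both Affymetrix array types, chip A and chip B, making 8 samples in 2 groups of 4, with 1 cell population and no control group. The sources used here give neither strain nor number of animals per replicate. The p-values below set the distance of a mean log2 ratio from that of a ratio of 1 against the spread between these replicates. Every deposited value is a ratio to a reference for that probe set, which is named nowhere in the labels. It places a gene against that reference, and neither shows that a gene is expressed nor ranks it above another. The signal comes from a whole sorted population, in which fewer cells of a type and less RNA per cell cannot be told apart. The number of arrays limits the precision.

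The sodium pump exports sodium and imports potassium, and restores the ion gradients that channels and transporters run down. It pairs a catalytic alpha subunit with a beta subunit that carries the pump to the membrane. Atp1b1 (beta 1) is the common form of epithelia and is also found in neurons, Atp1b2 (beta 2) is the adhesion molecule on glia, a glial surface protein known from rodent brain, and Atp1b3 (beta 3) is found in many tissues. The plasma membrane calcium pumps export calcium under the control of calmodulin. Atp2b1 and Atp2b4 are found in most tissues, and Atp2b4 also in red cells. Atp2b2 is known from neurons and hair cells. Atp2b3 is known from neurons and, in rat, from the choroid plexus, the epithelium that makes cerebrospinal fluid.

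Of the 15 probe sets, 5 had all 4 ratios above 1 (10.2% of all probe sets on both array types did), 3 had all 4 below 1 (38.0% of all), and 7 lay on both sides. The median of their mean log2 ratios was 0.19, beside -0.11 over all probe sets. A mean log2 ratio of 1 or more, which is a ratio of 2 or more, was found for 3 (3.01% of all): one each of Atp2b3, Atp2b2 and Atp1b2. A mean of -1 or less was found for 2 (6.95% of all): the other Atp2b2 probe set and that of Atp2b4. The list was drawn up from these ratios, so nothing is read from these shares.

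**Figure D1:**
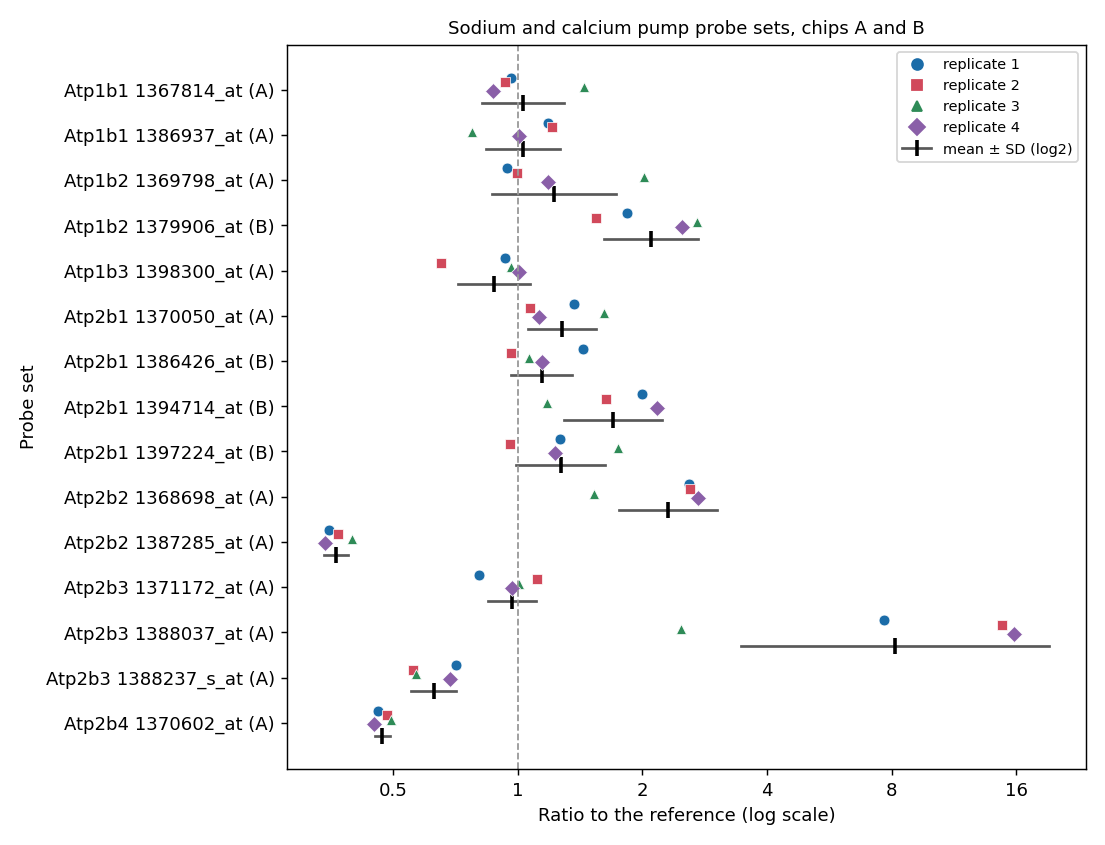
Ratio to the reference (log scale) of each of the 15 pump probe sets, with the array type in brackets. Each marker is 1 replicate, the bar below the markers is the mean ± SD of the log2 ratios (n = 4), and the dashed line is a ratio of 1. A single Atp2b3 probe set reaches 15.75, the other 2 lie near or below 1, and the 2 Atp2b2 probe sets lie on opposite sides of the line.

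The stretch before the start of transcription is shown for the 2 genes with a probe set at a mean log2 ratio of 1 or more that are in RefSeq's promoter table (GRCr8), as sequence context for the glial sodium pump subunit and the neuronal calcium pump. The table matched 5 of the 7 genes, all but Atp1b1 and Atp2b3. Each sequence is the 250 bases before the start, 5′ to 3′ on the gene's own strand, which is the minus strand for both. Atp1b2 lies at chr10:54823709-54823958 and Atp2b2 at chr4:148763654-148763903. Capitals mark matches on either strand to TATAAA (the TATA box) or to GGGCGG (the GC box).
Atp1b2: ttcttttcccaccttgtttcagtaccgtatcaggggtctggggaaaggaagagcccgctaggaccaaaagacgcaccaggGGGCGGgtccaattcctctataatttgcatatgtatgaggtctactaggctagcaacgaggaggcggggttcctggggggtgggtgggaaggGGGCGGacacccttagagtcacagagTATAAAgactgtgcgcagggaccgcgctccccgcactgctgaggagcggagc
Atp2b2: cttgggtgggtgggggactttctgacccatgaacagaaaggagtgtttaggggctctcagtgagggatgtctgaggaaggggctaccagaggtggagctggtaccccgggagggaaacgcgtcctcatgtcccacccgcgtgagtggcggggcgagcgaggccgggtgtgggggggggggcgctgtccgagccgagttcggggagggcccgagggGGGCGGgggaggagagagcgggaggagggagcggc
The Atp1b2 stretch held TATAAA 1 time, beginning 52 bases before the start, and GGGCGG 2 times, beginning 170 and 78 bases before it. The Atp2b2 stretch held GGGCGG 1 time, 35 bases before the start, and no TATAAA. Of the other matched genes, Atp1b3 had 6 GGGCGG matches, Atp2b1 had 3 and Atp2b4 had 0, and none of these held TATAAA. Over the same 250 bases of 33469 rat promoters, 12.9% held TATAAA and 30.5% held GGGCGG. The arrays measured no binding at these stretches, so the matches describe sequence only.

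The glial subunit Atp1b2 lay above the reference on chip B, which measured no other beta subunit. There its probe set 1379906_at read 1.837, 1.548, 2.714 and 2.489 in replicates 1 to 4, all above 1, a mean log2 ratio of 1.07 ± 0.38 (SD, n = 4). Only 2.46% of chip B probe sets had a mean as high. On chip A its probe set 1369798_at read 0.942, 0.995, 2.015 and 1.183, a mean log2 ratio of 0.29 ± 0.50. The 2 probe sets differed in size, and replicate 3 was the highest on both array types. Without replicate 3 the means were 0.94 on chip B and 0.05 on chip A, so most of the chip A excess lay in that replicate. In replicates 1 and 2 an Atp1b1 probe set, 1386937_at, lay above it. On chip A, replicate 3 was the highest for 36.1% of all probe sets.

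The broad beta subunits stood near the reference. The Atp1b1 probe set 1367814_at read 0.961, 0.929, 1.445 and 0.873, and the other one, 1386937_at, read 1.181, 1.212, 0.776 and 1.006. Their mean log2 ratios were both 0.04, with SDs of 0.33 and 0.30, but they placed replicate 3 at opposite ends: it was the highest in 1367814_at and the lowest in 1386937_at. Atp1b3 read 0.93, 0.654, 0.963 and 1.008, a mean log2 ratio of -0.19 ± 0.29, with replicate 2 apart on the low side. These 3 probe sets had ratios on both sides of 1.

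The widespread calcium pump Atp2b1 had 4 probe sets, and all 4 means were above 0 on the log2 scale. On chip A, 1370050_at read 1.366, 1.072, 1.617 and 1.128, with a mean log2 ratio of 0.35 ± 0.27. On chip B, 1394714_at read 1.996, 1.629, 1.175 and 2.168, with a mean of 0.76 ± 0.39. The ratios of both were all above 1. The other chip B probe sets, 1386426_at and 1397224_at, had means of 0.19 ± 0.25 and 0.34 ± 0.36, each with replicate 2 just below 1, at 0.964 and 0.958. Replicate 3 was the highest in 1370050_at and 1397224_at and the lowest in 1394714_at, so the probe sets of this gene did not rank the replicates alike.

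Atp2b4, the other pump of most tissues, lay low and even. Its single probe set, 1370602_at, read 0.46, 0.482, 0.493 and 0.449, a mean log2 ratio of -1.09 ± 0.06, or -0.97 with each array centred on its median. Values this low and this even were common: 809 of 15866 chip A probe sets (5.1%) had a mean log2 ratio of -1 or less with an SD of 0.1 or less, and so did 3 of the 57 control probe sets. Its 5 nearest probe sets by Euclidean distance over the 4 log2 ratios were those of Galr2, Opn1mw, Nfib, Cyp17a1 and Fam162a, at distances of 0.0172 to 0.0226, and 763 of 12782 single-gene probe sets lay within 0.5. Galr2 encodes a galanin receptor, Opn1mw a cone opsin and Cyp17a1 an enzyme of steroid synthesis. Whether this probe set detected its transcript cannot be told from a ratio.

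Atp2b2, the neuronal pump, had a high and a low probe set on the same arrays. The high one, 1368698_at, read 2.589, 2.6, 1.531 and 2.723, a mean log2 ratio of 1.20 ± 0.39, with 2.31% of chip A probe sets as high. Replicates 1, 2 and 4 lay close together and replicate 3 lay apart below them, still above 1. The low one, 1387285_at, read 0.349, 0.368, 0.398 and 0.342, a mean log2 ratio of -1.46 ± 0.10. The gap between them was 2.66 ± 0.48 on the log2 scale. Of the 1868 genes with several chip A probe sets, 0.696% had a gap as wide, and the median gap was 0.42.

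The probe sets nearest to the high one of Atp2b2 were those of Chka (choline kinase), Sash1, Me1 (malic enzyme), Dlg3 (a synaptic scaffold protein) and Pfkfb3 (a regulator of glycolysis), at distances of 0.262 to 0.384. As this choice by likeness favours, replicate 3 was the lowest of all 5, from 1.257 for Dlg3 to 1.757 for Chka. Nearest to the low probe set were Calcr (the calcitonin receptor), Arhgef11, Tmem233, Ppp3cc (a calcineurin subunit) and Cited4, at 0.038 to 0.0664. There, 310 single-gene probe sets lay within 0.5, against 14 for the high probe set.

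Atp2b3 had the highest ratio and the widest spread of the pump genes. Its probe set 1388037_at read 7.675, 14.73, 2.48 and 15.75 in replicates 1 to 4, a mean log2 ratio of 3.03 ± 1.24. All 4 were above 2, the highest was 6.35 times the lowest, and replicate 3 lay far below the others. It ranked 12 from the top of 15866 chip A probe sets, and 0.29% of them had an SD as large. The other 2 Atp2b3 probe sets did not share this. The ratios of 1371172_at were 0.808, 1.112, 1.007 and 0.966, a mean log2 ratio of -0.05 ± 0.19. Those of 1388237_s_at, whose suffix marks probes shared by several transcripts, were 0.709, 0.557, 0.568 and 0.684, a mean of -0.68 ± 0.18. The widest gap between the probe sets was 3.70 ± 1.19 on the log2 scale, which 0.161% of genes with several chip A probe sets reached. The high ratio of Atp2b3 therefore rests on 1 probe set of 3.

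Differences between isoforms were taken on the same array, where the array's own scale cancels. They compare places against the reference, not amounts of transcript. There were 13 pairs of probe sets, all on chip A. Atp1b2 minus Atp1b3 was above 0 in all 4 replicates, at 0.02, 0.61, 1.07 and 0.23, with a mean of 0.48 ± 0.46. Atp1b2 minus Atp1b1 averaged 0.25 with either Atp1b1 probe set, with SDs of 0.25 and 0.79, and was above 0 in 3 and 2 of the 4 replicates. Without replicate 3, the mean against 1386937_at turned to -0.13. In all 3 sodium pump pairs the mean difference was no more than about 1 SD of the replicates.

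For the calcium pumps the answer turned on the probe set. Atp2b3 1388037_at minus Atp2b1 1370050_at was 2.49, 3.78, 0.62 and 3.80, a mean of 2.67 ± 1.50, while 1388237_s_at minus the same probe set was below 0 in all 4 replicates, with a mean of -1.03 ± 0.34. Against Atp2b4, all 3 Atp2b3 probe sets were higher in all 4 replicates, with means of 4.11 ± 1.28, 1.04 ± 0.17 and 0.41 ± 0.24. The high Atp2b2 probe set exceeded Atp2b1 by 0.85 ± 0.64, with replicate 3 at -0.08, and exceeded Atp2b4 by 2.29 ± 0.44. The low Atp2b2 probe set lay below both, by a mean of -1.81 ± 0.22 and -0.37 ± 0.04. The Atp2b4 probe set and the low Atp2b2 one were both low and even. Whether they detected their transcripts cannot be told, which limits every difference taken from them.

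**Figure D2:**
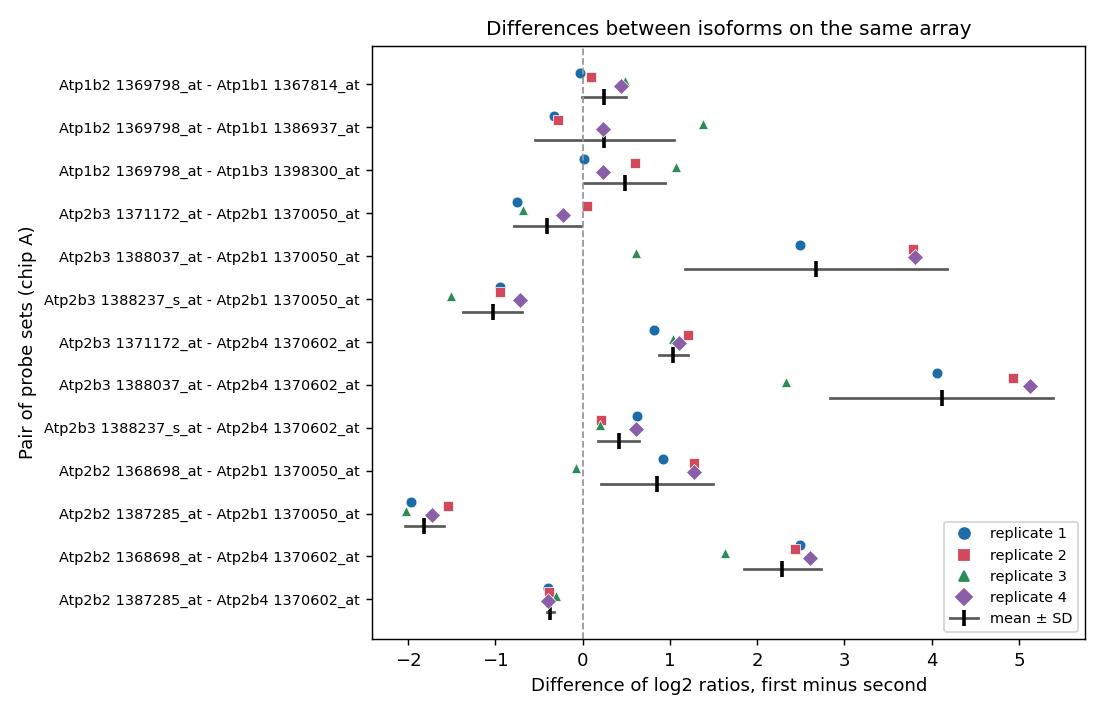
Differences of log2 ratios between 2 probe sets on the same chip A array, first minus second. Markers are replicates, bars are the mean ± SD (n = 4), and the dashed line is no difference. All 3 Atp2b3 probe sets lie above that of Atp2b4, which was low and even and may not have detected its transcript. Against Atp2b1 the sign depends on the probe set.

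The 5 probe sets nearest to Atp2b3 1388037_at over the 4 replicates were those of Mfrp, F5 (coagulation factor V), Cldn2 (a claudin of leaky epithelia), Slco1a5 (an organic anion transporter) and Htr2c (a serotonin receptor abundant in choroid plexus). Their distances were 0.589, 0.999, 1.04, 1.19 and 1.49 on the log2 scale, and 0 of 12782 single-gene probe sets lay within 0.5. Mfrp read 7.685, 19.25, 2.556 and 21.4, close to Atp2b3 in replicates 1 and 3 and above it in replicates 2 and 4. Cldn2 read 6.285, 12.13, 1.415 and 22.53. F5 read 5.749, 11.14, 2.053 and 9.262. In all 5, replicate 3 was the lowest and replicate 1 next, as for Atp2b3, which the choice by likeness over these same replicates favours, so nothing is read from the shared order.

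Mfrp, Cldn2 and Slco1a5 belong to a list of 17 choroid plexus and ependyma markers, of which 15 were measured. Against a ratio of 1 in limma, 8 genes of the list had only higher calls (7.7% of all 13810 genes did), 1 had only lower calls (36.1%), 1 had both (1.52%) and 5 had none. Its median mean log2 ratio was 0.41, beside -0.11 over all probe sets. Higher were Ttr (transthyretin) at 0.99 ± 0.20 (limma adjusted p = 0.000873), Folr1, Otx2, Aqp1, Cldn2, Slco1a5, Mfrp and Slc13a4, while Kl was lower at -0.96 ± 0.23 (limma adjusted p = 0.00136) and Kcne2 had calls of both kinds. Otx2 and Aqp1 each had a second probe set with no call, at -0.04 and 0.00 (limma adjusted p = 0.69 and 0.996). The calls of Otx2 and Cldn2 were lost without replicate 1, 2 or 4, and that of Folr1 without replicate 3 or 4. Over the 21 chip A probe sets of the list, the mean ratio was 2.74, 5.44, 1.25 and 4.87 in replicates 1 to 4, with replicate 3 the lowest, and the summed ratio ran from 26.3 to 114. No marker had a ratio of 0, but a ratio does not show that a transcript was detected. Of its 7 probe sets with a mean log2 ratio of 1 or more, 6 were lowest in replicate 3, against 35.9% of all such chip A probe sets. The exception was Slc13a4. Just under that cut, Ttr at 0.99 was lowest in replicate 3 and Folr1 at 0.97 in replicate 1. Mfrp, Cldn2 and Slco1a5 had been picked for likeness to Atp2b3 over these same replicates, so nothing is read from this count. The part of choroid plexus RNA in the Atp2b3 value was not tested, and several of these markers were put on the list with their ratios known.

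**Figure D3:**
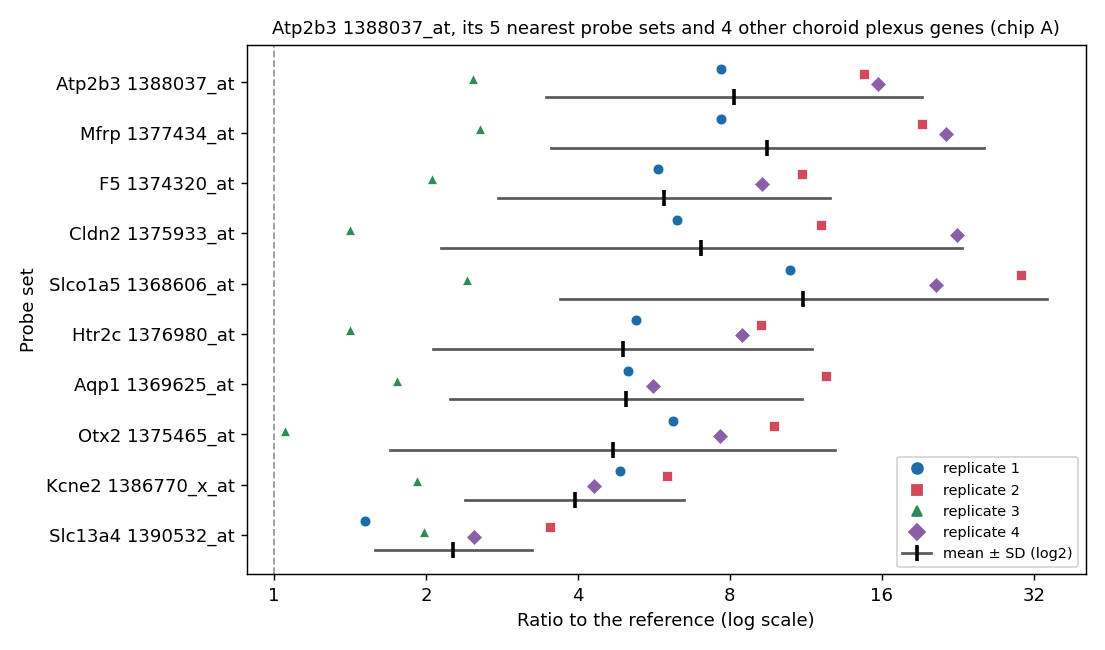
Ratio to the reference (log scale) on chip A for Atp2b3 1388037_at (top), its 5 nearest probe sets, and the 4 other choroid plexus markers with a mean log2 ratio of 1 or more. Markers are replicates, bars the mean ± SD of log2 ratios (n = 4), and the dashed line is a ratio of 1. Replicate 3 is the lowest in all but Slc13a4.

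The probe sets nearest to Atp1b2 on chip B were those of Slc1a4 (a neutral amino acid transporter) at a distance of 0.328, Wnt7a (a Wnt ligand) at 0.37, Itgb1bp1 at 0.423, Adgrb2 (an adhesion receptor) at 0.45 and Rnf215 at 0.474, out of 7563 compared. Slc1a4, Wnt7a and Itgb1bp1 were highest in replicate 3, at 2.339, 3.248 and 2.658, as Atp1b2 was. The choice by likeness favours this too. The astrocyte markers on chip A had a mean ratio of 4.31, 2.27, 3.88 and 2.25 in replicates 1 to 4 over 20 probe sets. The replicate 1 mean included an Aqp4 probe set at 23.27. By median the list stood at 2.72, 1.98, 2.67 and 2.03, so replicates 1 and 3 were nearly level. Chip A Atp1b2 was highest in replicate 3 and lowest in replicate 1. The part of astrocyte RNA in the Atp1b2 values was not tested.

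Marker lists place the sort as a whole against the unnamed reference. Over all 13810 genes, 7.7% had only higher calls, 36.1% only lower and 1.52% both, and each count stands beside those shares. Of the astrocyte list, 9 of 13 measured genes had only higher calls, 1 only lower and 2 both, with a median mean log2 ratio of 1.28. Of 14 neuronal genes 6 had only higher calls, 2 only lower and 2 both (median 0.12), and of 7 cerebellar neuron genes 1 was higher and 2 lower (-0.08). In the oligodendrocyte lineage list, which carries the label's own cell type, 1 of 12 measured genes was higher (Pdgfra), 2 were lower (Olig2 and Cldn11) and 9 had no call (0.00). Olig2 and Cldn11 each had a second probe set with no call, at -0.03 and 0.16 (limma adjusted p = 0.608 and 0.177). The microglial list had 4 lower calls of 10 (-0.53) and 0 higher ones in limma. At an unadjusted limma p under 0.05, 8 were lower and 0 higher, and the highest mean of its probe sets was -0.15. In limma the endothelial list had 0 calls of 7 (0.03), also 0 with p unadjusted. The erythroid list had 1 lower call of 4 (-0.04). The lower counts by adjusted p of the microglial, cerebellar and erythroid lists are near the share over all genes. No such share was taken for the unadjusted counts. Several of these counts rest on single replicates: no oligodendrocyte lineage gene was higher without replicate 1, 3 or 4 and 2 were without replicate 2, the microglial list had 7 lower calls without replicate 3 and 0 to 1 without any other, and 3 endothelial genes were higher without replicate 1. A ratio near 1 says that a marker was as high as in the unnamed reference, and one above 1 that it was higher than there. Without knowing that reference, these lists neither bear out nor contradict the label. The pairwise correlation of replicates over all probe sets was 0.716 to 0.792 on chip A and 0.71 to 0.786 on chip B.

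Of the 16 partners of the sodium pump, all measured, 2 were higher (7.7% of all genes were higher only), 5 were lower (36.1% of all) and 9 had no call, with a median mean log2 ratio of 0.08, beside -0.11 over all probe sets. Both counts are near the background. The higher ones were Fxyd1 (phospholemman, a small regulator of the pump), which read 1.694, 2.689, 1.739 and 2.776, a mean log2 ratio of 1.11 ± 0.39 (limma adjusted p = 0.00367), and Nkain4 (of a family that binds the beta 1 subunit), which read 1.778, 1.531, 2.303 and 1.444, a mean of 0.79 ± 0.30 (limma adjusted p = 0.00592). Both had all 4 ratios above 1. Replicates 2 and 4 were high for Fxyd1, and replicate 3 for Nkain4.

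The lower partners of the sodium pump were mostly pump subunits of other organs. They were Atp12a (the non-gastric proton pump) at -1.26 ± 0.17 (limma adjusted p = 0.000269), Atp4b (the gastric proton pump's beta subunit) at -1.19 ± 0.05 (0.000134), Atp1b4 (a relative of the beta subunits found in muscle) at -1.01 ± 0.07 (0.000216), Atp1a4 (the catalytic subunit of sperm) at -0.45 ± 0.08 (0.00413) and Fxyd2 at -0.28 ± 0.15 (0.0421). The call of Fxyd2 was lost with centring, with a trended and robust prior, and without replicate 1, 2 or 4. The probe sets of Atp4b and Atp1b4 were low and even in the sense given for Atp2b4, as 5.1% of chip A probe sets were. An SD this small lowers the limma p, and whether these probe sets detected their transcripts cannot be told. Atp1a4 was the only catalytic alpha subunit gene among the single-gene probe sets used here, and the other alpha subunits were not analysed here.

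Of the 35 partners of the calcium pumps 31 were measured, 2 higher (7.7% of all genes), 14 lower (36.1% of all), 1 with both and 14 with no call, at a median mean log2 ratio of -0.09, beside -0.11 over all probe sets. Both the higher and the lower count are near the background. Nptn (neuroplastin) and Bsg (basigin), membrane proteins that bind the calcium pumps, had no call: Nptn read 0.996, 0.872, 1.134 and 1.02 (mean 0.00 ± 0.16, limma adjusted p = 0.989), and Bsg read 0.936, 1.91, 1.35 and 1.33 (0.42 ± 0.42, limma adjusted p = 0.107). Nptn lay on both sides of 1, and Bsg was below 1 in replicate 1 only. Without replicate 1, Bsg passed at 0.59 (limma adjusted p = 0.0352).

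The gene with both calls was Atp2a2, the calcium pump of the endoplasmic reticulum in most cells. Its chip A probe sets stood at 1.19 ± 0.43 (limma adjusted p = 0.00404), 0.90 ± 0.08 (0.000321), 0.51 ± 0.08 (0.00273) and -2.33 ± 0.05 (9.73e-05), so 3 were higher and 1 was lower, and the chip B one at 0.35 ± 0.27 had no call (0.0921). Like Atp2b2 and Atp2b3, this pump gene had probe sets on opposite sides of the reference. The highest, 1398862_at, read 3.038, 1.858, 2.838 and 1.678. Slc24a3, a potassium-dependent sodium-calcium exchanger, was higher in 1 of 2 probe sets, at 0.95 ± 0.21 (limma adjusted p = 0.00122), and its other one, 1388221_at, stood at -0.02 (0.837). Stim1, the calcium sensor of the reticulum, was higher in 1 of 3, at 0.49 ± 0.29 (limma adjusted p = 0.0278), and the others, on chip B, stood at 0.29 (0.191) and 0.01 (0.936). By the middle one of its 3 probe sets Stim1 was not higher. For Slc24a3, with 2 probe sets, the median rule took the lower one, so it decided nothing there. The call of Stim1 was lost without replicate 2 (limma adjusted p = 0.0555) or 3 (0.0721). The lowest probe sets besides that of Atp2a2 were those of Ryr1, the calcium release channel of skeletal muscle, at -1.44 ± 0.05 on chip B (limma adjusted p = 6.63e-05), the muscle pump Atp2a1 at -1.33 ± 0.06 (0.000113) and Atp2a3 at -1.31 ± 0.06 (0.000113). These probe sets and the low one of Atp2a2 were low and even, as that of Atp2b4 was. Whether they detected their transcripts cannot be told from ratios. A second probe set of Ryr1, on chip A, and one of Atp2a3 had no call, at -0.45 (limma adjusted p = 0.178) and -0.19 (0.0732). The sodium-calcium exchanger Slc8a3 and the calmodulin gene Calm2 were also lower, at -0.88 (limma adjusted p = 0.000288) and -0.56 (0.00331). They were not among the 4 largest means, and genes not described here were lower still, such as Atp2c2 at -1.04 (limma adjusted p = 0.000175). The Slc8a3 probe set was also even (SD 0.05), and its detection cannot be told either. The exchanger Slc8a1 was lower in 1 of 2 probe sets, at -0.72 (limma adjusted p = 0.0006), while the other, 1372449_at, stood at -0.04 (0.87) with 3 of 4 ratios above 1.

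**Figure D4:**
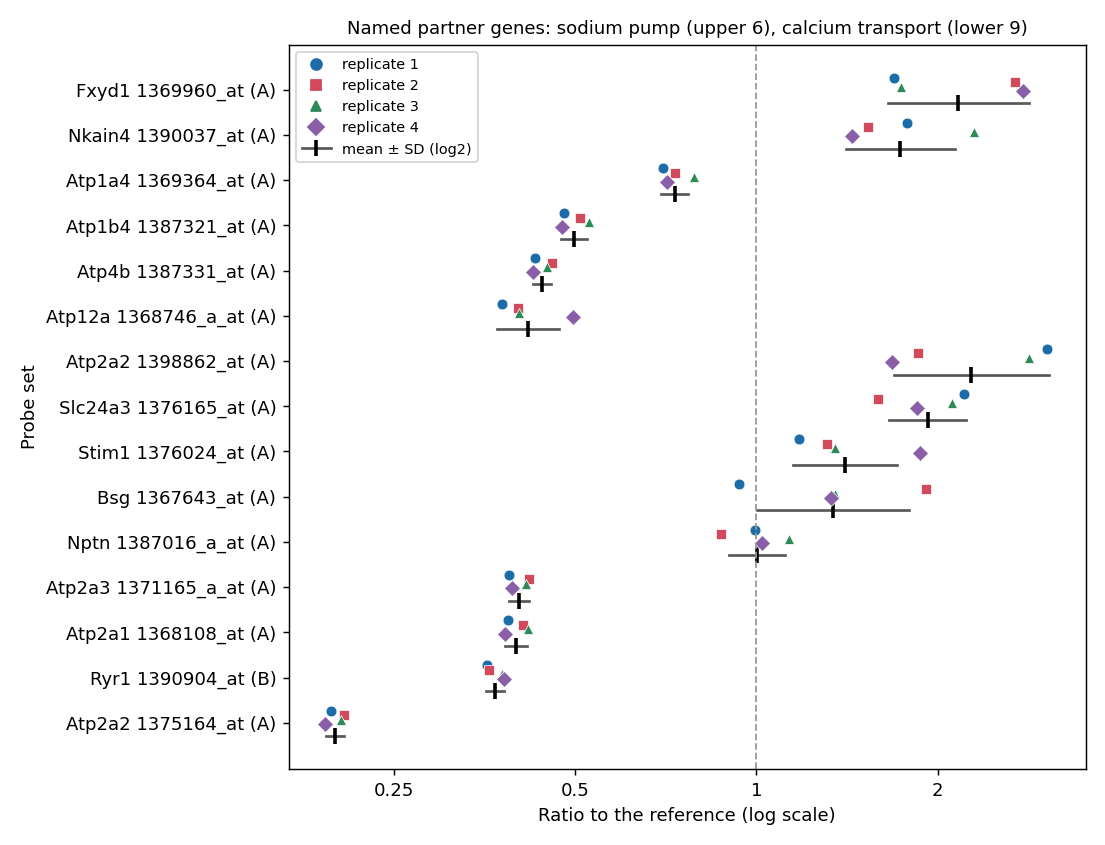
Ratio to the reference (log scale) of the named partner genes of the sodium pump (upper 6) and of calcium transport (lower 9), with the array type in brackets. Markers are replicates, bars the mean ± SD of log2 ratios (n = 4), and the dashed line is a ratio of 1. The probe sets called lower have all 4 replicates below 1, while Fxyd1 and the highest Atp2a2 probe set each split the replicates into 2 pairs.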

How the data were processed

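Total RNA was labelled with biotin by Affymetrix's small sample protocol, per the labels. The submitters' processing notes name RMA without a version. What the authors deposited are linear ratios, with a median of 0.888 to 0.967 per array, to a reference that no label names. No source used here gives the step that made them.

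Ratios were put on the log2 scale as deposited, and 57 control probe sets per array type were left out. Genes were named from the platform annotation, only where a probe set had 1 symbol. Probe sets were tested against a ratio of 1 with limma 3.58.1 in R 4.3.3 (intercept, eBayes, two-sided), with Benjamini-Hochberg adjustment over all probe sets of an array type at 0.05. The limma script was tested on simulated data. A gene was called by any of its single-gene probe sets. The pump genes carry no test.

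The named partners were the 4 with the largest mean in each list and direction, plus Nptn, Bsg and Atp1a genes. Fxyd2, Slc8a1, Slc8a3, Calm2 and Atp2c1 are given outside this rule. The nearest 5 probe sets were named for pump probe sets with a mean log2 ratio of 1 or more in size. The genes, lists and rules were chosen with earlier results of these data known. Alternatives were centring, leaving out replicates, a trended and robust prior, median probe sets and a smaller threshold.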

Additional observations from a re-analysis of the deposited data

Results flagged for a closer look

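Atp2b2 probe set 1368698_at on chip A had 1 replicate far from the others: the gap of replicate 3, at 1.531, to the nearest of the other replicates, at 2.589, took 0.912 of the whole log2 range, above Dixon's critical value for 4 samples. It was the only such case among the 30 probe sets checked, those of the pump genes and the named partners. Chance alone marks about 1 in 20. The other partner probe sets were not checked, and among them Atp2c1 1371134_at read 0.697, 1.768, 0.743 and 0.754, with replicate 2 far from the others.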

How the results depend on the processing

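Centring each array on its median added 0.118 (chip A) and 0.104 (chip B) to log2 ratios on average. It moved the mean log2 ratio of Atp2b4 to -0.97 and that of the low Atp2b2 probe set to -1.34, which left 1 pump probe set at -1 or less in place of 2. Counts of higher or lower partners and markers in this section include genes with both calls, unless only 1 kind of call is named. With each gene's median probe set, 1 calcium transport partner (Atp2a2) was higher in place of 3, and 12 were lower in place of 15. For an even number of probe sets this rule took the lower of the middle 2, which fixed the loss of Slc24a3 in advance. A threshold of 0.5 in size gave 4 high and 3 low pump probe sets, in place of 3 and 2. With a replicate left out there were 2 to 3 high and 2 low pump probe sets, 2 to 3 higher and 4 to 5 lower sodium pump partners, and 2 to 4 higher and 15 to 16 lower calcium transport partners. Settings for the marker lists were chosen after seeing the data. Centring gave 3 oligodendrocyte lineage genes with a higher call in place of 1, and 1 lower microglial gene in place of 4. Over all genes it gave 1397 with only higher calls in place of 1064, and 4011 with only lower calls in place of 4991. Both lists thus moved in the direction of all genes. Of 372 recomputed values, 352 kept their call or stayed within the replicate spread (counts within 1.5 times). Another 17 moved further, 2 lost a limma call, 1 gained one and 0 with a call reversed. Leaving out a replicate cannot move a mean by as much as its SD. For the pump means and isoform differences, those settings could therefore only stay within the spread, and nothing is read from that. A further count is of sign: 8 means that lay within the replicate spread or had no call took the other sign, for both Atp1b1 probe sets, Atp2b3 1371172_at, Nptn and Atp1b2 minus Atp1b1 1386937_at. The causes of these moves were not tested. No paired analysis was possible because the groups are 2 array types that read the same replicates and are not compared with each other. Signal over background is unknown for ratios, so detection of a transcript cannot be judged.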
